A study of Rattus norvegicus with 60 samples.

Results

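The 48 genes described here encode proteins that carry a cell through mitosis and cytokinesis, and they were followed in the lungs of rats that had inhaled multi-walled carbon nanotubes (MWCNT), fibrous particles made of rolled sheets of carbon. The members were chosen by name from the count table (mitotic kinases, spindle, kinetochore, condensin and cytokinesis genes). Earlier results of these data were known when they were chosen. All 48 were found among the 30045 rows of the table, and all 48 were among the 15995 genes with enough counts to test. Male Fischer 344 rats (CDF, F344/DuCrl), about 3 months old, had breathed filtered air or MWCNT in whole-body chambers for 6 hours a day on 3 days, and a piece of lung was taken 1 day after the last exposure. The cumulative doses ran from 11.25 mg/m3 through 22.5 mg/m3, 45 and then 90 up to 180 mg/m3, and each was a separate run with 6 exposed rats and 6 rats of its own in filtered air, so dose and run cannot be told apart in comparisons between doses. Each library is one rat. The labels mark 7 libraries as outliers, and without them the exposed groups held 5, 4, 6, 6 and 5 rats from the highest to the lowest dose and the air groups 6, 6, 3, 6 and 6.

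At the entry to mitosis, cyclin A and cyclin B activate the kinase CDK1, and the Polo and Aurora kinases organise the spindle. Kinetochore complexes then tie chromosomes to microtubules, the spindle checkpoint holds back the anaphase-promoting complex (APC/C) until every chromosome is attached, and the central spindle and the RhoA pathway cut the cell apart. Transcripts of these genes are made in late S, G2 and M phase and are scarce in resting cells, which is why they are widely used as a measure of proliferation. The adult lung renews slowly, and type II alveolar cells, airway secretory cells, endothelium and macrophages are among the cells known to divide there after injury.

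Many mitosis genes are known to share promoter elements, a cell cycle genes homology region (CHR, bound by the MuvB complex with p130, B-MYB or FOXM1) and CCAAT boxes (bound by NF-Y). RefSeq promoter windows of 300 bases, from 250 bases before the start to 50 after it on the GRCr8 assembly, were matched by symbol to 41 of the 48 members. Shares are of genes, and a gene with several windows counted if any of them held the letters. The letters TTTGAA or TTCGAA of the CHR, searched on both strands, stood in 27 of the 41 members (65.9%). They stood in 15.1% of the 10760 genes tested in the counts that had a window and in 21% of all 27457 genes with a window. CCAAT, also on both strands (ATTGG on the other), was found in 30 members (73.2%), against 38.7% of tested genes and 39.6% of all. Both motifs shared a window in 22 members (53.7%), against 6.15% and 8.57%. In 60 listed mitosis genes outside the 48, CHR letters stood in 71.7%, CCAAT in 55% and both in 45%. In 40 DNA replication genes these shares were 25%, 57.5% and 10%. E2F letters (TTTCCCGC, TTTGGCGC, TTTCGCGC or TTTGCCGC, both strands) were present in 1 member, Cdk1 (2.44%), against 3.74% and 2.37%, and in 19 of 40 DNA replication genes with a window (47.5%). In 6 members, Aurka, Bub1, Kif18b, Kif2c, Melk and Ncaph, none of these letters was found. A match is a description of the letters and not of a bound site.

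The sequences below are the 150 bases before the start of 7 members, 5′ to 3′, with the motif letters in capitals. Cdk1, Cdc20, Pttg1 and Mki67 were chosen to show the shared layout. Their log2 rises after MWCNT at 180 mg/m3 were 1.59, 1.55, 1.54 and 1.66, near the median of 1.52 over all members. Nek2 has CCAAT boxes without CHR letters and the largest rise. Smc4 has both kinds of letters and a small rise, and Aurka has neither and a small rise. Among members without any of the letters Aurka rose least, and Bub1, Kif18b, Kif2c, Melk and Ncaph rose by at least 1.11. Of members with larger rises than Mki67, some (Anln, Ect2) hold CHR letters and others (Ccnb1, Melk, Cdca3) do not. Whether the letters go with the rise was not tested.
Cdk1, chr20:19265143-19265292, plus strand: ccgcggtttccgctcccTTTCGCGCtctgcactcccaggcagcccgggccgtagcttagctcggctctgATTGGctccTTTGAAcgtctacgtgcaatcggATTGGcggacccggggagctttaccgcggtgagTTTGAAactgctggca
Cdc20, chr5:137255800-137255949, minus strand: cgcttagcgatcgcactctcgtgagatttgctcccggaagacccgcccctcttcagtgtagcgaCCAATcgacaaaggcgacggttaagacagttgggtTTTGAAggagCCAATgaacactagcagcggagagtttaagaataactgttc
Pttg1, chr10:28406327-28406476, minus strand: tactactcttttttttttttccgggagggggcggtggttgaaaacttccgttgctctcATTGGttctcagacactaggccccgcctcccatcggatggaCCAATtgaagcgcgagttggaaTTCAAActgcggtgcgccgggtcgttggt
Mki67, chr1:199952594-199952743, minus strand: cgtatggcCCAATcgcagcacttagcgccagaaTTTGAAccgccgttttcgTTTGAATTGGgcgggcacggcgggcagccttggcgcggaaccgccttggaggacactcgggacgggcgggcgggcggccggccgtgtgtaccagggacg
Nek2, chr13:105936659-105936808, plus strand: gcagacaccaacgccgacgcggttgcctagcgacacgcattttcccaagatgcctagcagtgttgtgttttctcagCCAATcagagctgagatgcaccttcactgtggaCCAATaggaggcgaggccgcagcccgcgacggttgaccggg
Smc4, chr2:155550112-155550261, plus strand: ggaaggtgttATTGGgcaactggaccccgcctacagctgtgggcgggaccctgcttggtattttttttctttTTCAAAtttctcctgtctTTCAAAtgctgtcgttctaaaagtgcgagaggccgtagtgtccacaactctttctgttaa
Aurka, chr3:181560770-181560919, minus strand: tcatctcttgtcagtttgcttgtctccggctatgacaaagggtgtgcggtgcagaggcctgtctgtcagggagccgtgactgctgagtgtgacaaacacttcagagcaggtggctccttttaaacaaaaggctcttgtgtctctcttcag
In Cdk1 the first capitals are the E2F letters and the others in the printed bases are 2 TTTGAA and 2 ATTGG. In Mki67, and likewise in Cdca8, TTTGAA and ATTGG share 1 base, so that a single run of capitals holds both. The CHR letters of Smc4 read TTCAAA, which is TTTGAA on the other strand.

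Levels are given as CPM, the reads of a gene among 1000000 reads of its library after TMM scaling, and they are not corrected for gene length. A fold change compares the exposed rats with the air rats of the same run. A member was called higher when edgeR's quasi-likelihood test, adjusted by Benjamini-Hochberg over the 15995 genes, gave an adjusted p under 0.05. Mitosis genes rose together in the 4 upper doses, and at the lowest dose no member passed the test. In the 180 mg/m3 run 46 of 48 members were higher and none lower, where 12% of all genes tested were higher. Their median log2 fold change was 1.52 (2.87-fold), against a median of -0.01 over all genes. At 90 mg/m3 46 members were higher (6.82% of all genes), with a median of 1.12. At 45 mg/m3, with 3 air libraries, 37 were higher (3.32% of all genes), with a median of 0.93. Of these, 11 (Ccnb2, Birc5, Cdca8, Pttg1, Cdca3, Nuf2, Kif15, Kif18b, Racgap1, Ncapg and Ncaph) lost the call without some 1 library, and 27 members were higher without air_045 replicate 4. At 22.5 mg/m3 43 were higher (5.18% of all genes), with a median of 1.12 and a median fold of 2.17. At 11.25 mg/m3 the edgeR test called 0 members (0.025% of all genes, 4 genes, were higher), with a median of 0.16. DESeq2 and limma voom, here always fitted with library quality weights, also called 0 members there. Of the 48 edgeR estimates in that run 41 lay above 0, where the median over all genes was 0.0065. An unadjusted p under 0.05 was found for 13 members and for 668 of the 15995 genes.

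The rise was also seen rat by rat. Every exposed library lay above every air library of its run for 44 of 48 members at 180 mg/m3 (7.32% of all genes), 43 at 90 (6.69%), 41 at 45 (7.53%), 39 at 22.5 (1.96%) and 1 at 11.25 mg/m3 (0.444%). This held in all 4 upper runs for 35 members. The mean of log2(CPM + 1) over the 48 members was 2.38 ± 0.085 (SD, n = 6) in the air rats of the 180 mg/m3 run and 3.51 ± 0.0311 (n = 5) in the exposed rats. It was 2.39 ± 0.0794 (n = 6) and 3.29 ± 0.104 (n = 4) at 90, 2.43 ± 0.0995 (n = 3) and 3.15 ± 0.0472 (n = 6) at 45, and 2.21 ± 0.117 and 3.04 ± 0.0836 (n = 6 each) at 22.5 mg/m3. At 11.25 mg/m3 the groups overlapped, at 2.28 ± 0.0976 (n = 6) and 2.42 ± 0.0551 (n = 5). RNA came from whole pieces of lung, so more cells in division and more RNA of these genes per cell cannot be told apart.

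**Figure D1:**
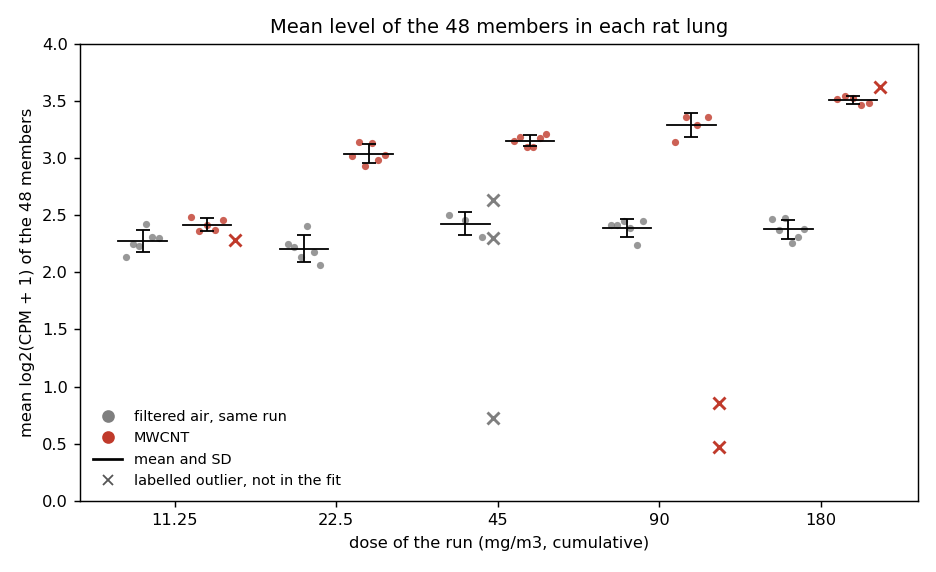
Mean log2(CPM + 1) of the 48 members in each rat lung (y axis) by the dose of the run (x axis), air in grey and MWCNT in red, with mean and SD as black bars. Exposed rats stand above all air rats of their run from 22.5 to 180 mg/m3, and crosses mark the 7 libraries with an outlier label, of which 3 lie between 0.471 and 0.857.

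The genes that switch on mitosis rose strongly, apart from Foxm1. Ccnb1 encodes cyclin B1, the activator of CDK1 at mitotic entry. In the air rats of the 180 mg/m3 run its lowest, median and highest levels were 1.24, 1.99 and 3.05 CPM, and the 5 exposed rats had 8.03, 9.31, 8.74, 7.92 and 9.72 CPM. The groups did not overlap, and the log2 fold change was 2.07 (SE 0.16, adjusted p = 2.06e-14), or 4.19-fold. Exposed rats were also clear of air rats at 90 mg/m3 (6.41, 7.14, 6.48 and 8.39 CPM, highest air rat 3.38), at 45 (lowest exposed rat 5.18, highest air rat 2.77) and at 22.5 mg/m3 (4.68 and 3.08). At 11.25 mg/m3 they were not: the exposed rats had 3.16, 3.82, 2.89, 2.86 and 3.16 CPM and the air rats up to 3.15. Cyclin A2 (Ccna2), cyclin B2 (Ccnb2) and Cdk1 were called in the same 4 runs, and at 180 mg/m3 their log2 fold changes were 1.83, 1.23 and 1.59.

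Foxm1, a transcription factor that drives many G2 and M genes, moved less. At 180 mg/m3 the air rats ran from 7.82 through a median of 8.9 to 9.72 CPM, and the exposed rats had 14.2, 13.3, 13.8, 13.4 and 14.4 CPM. That is a log2 fold change of 0.65 (SE 0.10, adjusted p = 6.43e-07), with no overlap. It was higher at 90 (0.41) and 22.5 mg/m3 (0.38). At 45 mg/m3 the 3 air rats had 7.9, 10.8 and 6.51 CPM and the exposed rats 9.34, 10.3 and 12.4 CPM at the lowest, median and highest, which overlap, and the adjusted p was 0.0521. The adjusted p was under 0.05 there with DESeq2 (0.0467), limma voom (0.04996) and a stricter filter (0.0472). The same held without air_045 replicate 2 (0.00345) and without MWCNT_045 replicate 1 (0.0433) or 6 (0.0357). It also held with the 4 labelled libraries that had at most 5% of counts in liver genes put back (0.00705). With all 60 libraries it held too (0.0127). At 22.5 mg/m3 the call was lost with that run fitted alone (0.0712) and with all 60 libraries (0.431).

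Among the mitotic kinases Nek2, which separates the centrosomes, had the largest rise of all members at 180 mg/m3. Its air rats had 0.86, 1.12 and 1.96 CPM (lowest, median, highest) and the exposed rats 7.91, 6.56, 6.35, 5.59 and 5.91 CPM. All exposed rats were far above the air rats, by 2.34 on the log2 scale (SE 0.20, adjusted p = 1.88e-13), or 5.06-fold. The rise was 4.89-fold at 90, 3.94-fold at 45 and 5.42-fold at 22.5 mg/m3. At 11.25 mg/m3 the exposed rats had 1.81, 3.03, 2.31, 1.61 and 2.14 CPM against a highest air rat of 1.72, a log2 difference of 0.76 with an adjusted p of 0.557. Melk, a kinase abundant in dividing cells, rose 4.29-fold at 180 and 3.4-fold at 22.5 mg/m3. It was the member whose exposed rats all exceeded all air rats at 11.25 mg/m3 (2.22, 1.69, 2.41, 1.61 and 2.23 CPM against at most 1.47), with an adjusted p of 0.289. Plk1, the Polo-like kinase of spindle and cytokinesis, was higher in the 4 upper runs, by 1.40 on the log2 scale at 180 mg/m3.

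Aurka, the Aurora kinase of centrosomes and spindle poles, rose less than Nek2 and Melk. At 180 mg/m3 the air rats had 6.88, 9.03 and 10 CPM (lowest, median, highest) and the exposed rats 12.6, 9.84, 12, 11.9 and 10.6 CPM. One exposed rat lay within the air range, and the log2 fold change was 0.40 (SE 0.10, 95% interval 0.21 to 0.60, adjusted p = 0.00203), which does not reach the interval of Nek2, 1.96 to 2.72. At 90 mg/m3 the groups were apart (11.3, 13.7, 12.5 and 11.9 CPM against at most 10) and the log2 fold change was 0.47. At 45 and 22.5 mg/m3 the groups overlapped, with log2 values of 0.15 (adjusted p = 0.552) and 0.26 (adjusted p = 0.0898).

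**Figure D2:**
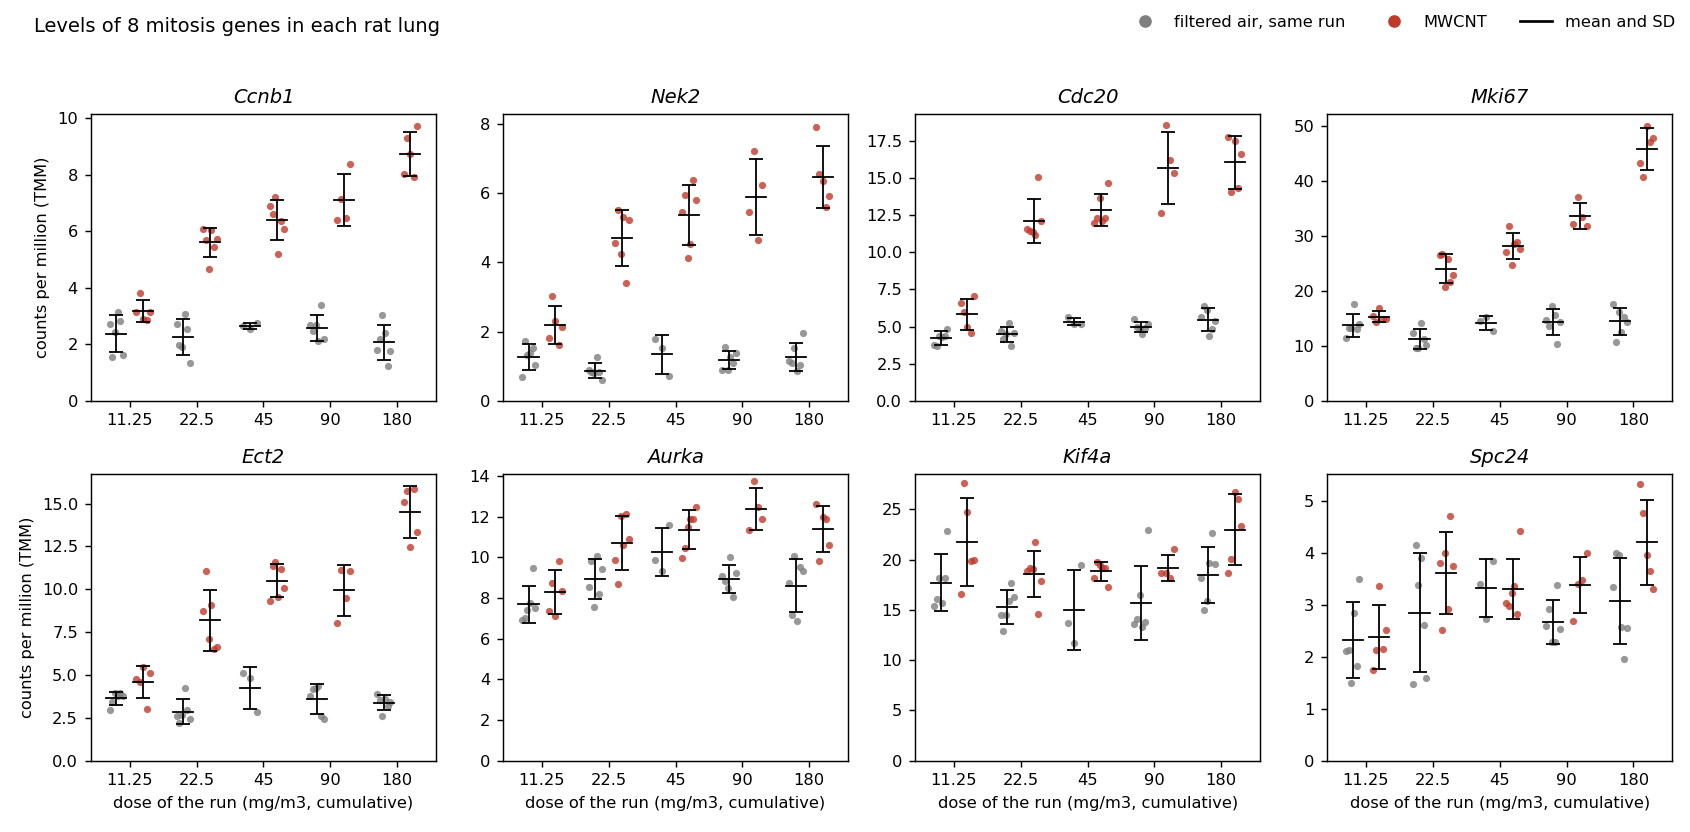
CPM (y axis) of 8 members in every analysed rat lung by the dose of the run (x axis), air in grey and MWCNT in red, with mean and SD. Ccnb1, Nek2, Cdc20, Mki67 and Ect2 are separated from air in the 4 upper runs, while Aurka, Kif4a and Spc24 overlap with air in most runs.

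The chromosomal passenger complex holds Aurora B kinase at centromeres and then at the midzone, and its 3 members here, Aurkb, Birc5 (survivin) and Cdca8 (borealin), were higher in all 4 upper runs. In the 45 mg/m3 run Birc5 lost the call without air_045 replicate 1 (adjusted p = 0.102) or replicate 4 (0.0964), and Cdca8 without replicate 1 (0.0552). Birc5 had 1.05, 2.01 and 3.05 CPM (lowest, median, highest) in the air rats of the 180 mg/m3 run and 6.67, 5.29, 5, 3.86 and 4.81 CPM in the exposed rats. These do not overlap, and the log2 fold change was 1.29 (SE 0.19, adjusted p = 5.06e-07). Aurkb had 76.3, 105 and 139 CPM in air and 157.97, 193, 203, 177 and 175 CPM after exposure. Its mean level in air was the highest of all members and far above those of its partners. Over the 27 air rats Aurkb was never below 74.4 CPM, while the means of Birc5 and Cdca8 were 1.79 and 3.98 CPM. What the high level of Aurkb in air reflects was not tested. The rise of Aurkb was 0.77 (SE 0.15, adjusted p = 1.36e-04) at 180 mg/m3, 0.97 at 90, 0.92 at 45 and 0.71 at 22.5 mg/m3. At 11.25 mg/m3 its means were 119 ± 26.8 CPM in air (n = 6) and 120 ± 22.6 CPM after exposure (n = 5).

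All 7 genes of the spindle checkpoint and APC/C regulation were higher at 180, 90 and 22.5 mg/m3, and 6 of them at 45 mg/m3. Cdca3, a mitotic-entry protein that helps degrade WEE1, rose most at 180 mg/m3. Its levels were 1.56, 2.21 and 4.33 CPM in air (lowest, median, highest) and 9.27, 7.51, 10.2, 7.72 and 9.32 CPM after MWCNT, with no overlap and a log2 fold change of 1.84 (SE 0.19, adjusted p = 1.32e-10). Bub1, a checkpoint kinase, rose least of the 7 and still without overlap. Its air rats ran from 6.37 through 7.87 to 9.91 CPM, and the exposed rats had 18.2, 18.7, 19.6, 18.8 and 16.6 CPM, a log2 fold change of 1.20 (SE 0.11, adjusted p = 3.68e-12).

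Cdc20, the activator through which the checkpoint controls the APC/C, had the lowest adjusted p of the members at 90, 45, 22.5 and 11.25 mg/m3. At 90 mg/m3 the air rats had 4.48, 4.95 and 5.49 CPM (lowest, median, highest) and the exposed rats 12.6, 18.6, 16.2 and 15.3 CPM, a log2 fold change of 1.66 (SE 0.11, adjusted p = 1.27e-16). At 11.25 mg/m3 the exposed rats had 6.58, 5.96, 5, 4.55 and 7.06 CPM against 3.68, 4.32 and 4.87 CPM in air, and the log2 difference of 0.47 (95% interval 0.25 to 0.70) had an adjusted p of 0.243. Ttk, the checkpoint kinase MPS1, was called in 3 runs. It rose by 1.56 at 180 mg/m3, from 0.765, 1.26 and 1.72 CPM in air to 4.08, 4.23, 3.33, 2.94 and 4.21 CPM. At 45 mg/m3 its groups still did not overlap (1.77, 1.45 and 1.87 CPM in air, 2.42 CPM in the lowest exposed rat), with a log2 difference of 0.71 and an adjusted p of 0.0511. The adjusted p was under 0.05 there with limma voom (0.0129), a stricter filter (0.047) and that run fitted alone (0.048). The same held without MWCNT_045 replicate 1 (0.0481) or 2 (0.0492). Bub1b, Ube2c (the ubiquitin-conjugating enzyme of the APC/C) and Pttg1 (securin, which its degradation releases from separase) were called in the 4 upper runs.

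At the kinetochore the 2 partners at one end of the NDC80 complex moved unequally. Spc25 had 0.785, 1.15 and 1.72 CPM in the air rats of the 180 mg/m3 run (lowest, median, highest) and 4.45, 5.08, 3.75, 3.55 and 2.61 CPM in the exposed rats. The groups were apart, with a log2 fold change of 1.66 (95% interval 1.26 to 2.06, adjusted p = 1.18e-08). Spc24 had 1.96, 2.96 and 3.99 CPM in air and 5.32, 4.76, 3.95, 3.66 and 3.31 CPM after exposure. These ranges overlap, and its log2 value of 0.44 (95% interval 0.02 to 0.85) had an adjusted p of 0.145. Spc24 was called in no run, and its log2 values were 0.34, -0.01, 0.37 and 0.03 from 90 down to 11.25 mg/m3. Ndc80 itself, the microtubule-binding subunit, was higher at 180 (6.43, 6.77, 6.77, 6.4 and 7.42 CPM against at most 3.35), at 90 and at 22.5 mg/m3. At 45 mg/m3 Ndc80 had 3.4, 3.83 and 2.86 CPM in air and at least 4.23 CPM after exposure, a log2 difference of 0.47 with an adjusted p of 0.0784. Nuf2, its partner, was called in all 4 upper runs, with 1.52 at 180 mg/m3. The call of Nuf2 at 45 mg/m3 was lost without any one of 5 of the 9 libraries (air_045 replicates 1, 2 and 4, MWCNT_045 replicates 2 and 4; adjusted p 0.0577 to 0.142).

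Of the centromere proteins, Cenpe (a kinetochore motor) and Cenpf were higher in the 4 upper runs, by 1.36 and 1.35 on the log2 scale at 180 mg/m3. Cenpa, the histone variant that marks the centromere, rested on few reads. At 180 mg/m3 it had 0.589, 0.682 and 1.33 CPM in air and 1.11, 1.8, 1.98, 1.42 and 1.9 CPM after exposure, which overlap, and a log2 fold change of 0.95 (SE 0.28, adjusted p = 0.0083). It was higher at 90 (1.22) and 22.5 mg/m3 (1.50), while at 45 mg/m3 the log2 difference of 0.90 had an adjusted p of 0.101. Cenpk, of the inner kinetochore, rose by 1.58 at 180 mg/m3, from at most 1.26 CPM in air to 2.97, 4.13, 2.39, 2.44 and 3.71 CPM. It was called at 90 and 22.5 mg/m3, and its adjusted p was 0.116 at 45 mg/m3. The call of Cenpk at 22.5 mg/m3 (0.86, adjusted p = 0.0345) was lost with limma voom (0.101), with that run fitted alone (0.253) and without any one of 6 of its 12 libraries (air_022 replicates 3, 5 and 6, MWCNT_022 replicates 2, 5 and 6; 0.0564 to 0.126).

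Kinesin motors move chromosomes and slide spindle microtubules, and 5 of the 6 in the group (Kif2c, Kif11, Kif15, Kif18b and Kif20a) were higher in all 4 upper runs. Without air_045 replicate 4 the adjusted p at 45 mg/m3 was 0.0678 for Kif15 and 0.176 for Kif18b. At 22.5 mg/m3 Kif15 lost the call without air_022 replicate 3 (0.0547) and with that run fitted alone (0.291). Kif20a, which carries the chromosomal passenger complex to the midzone, had 2.58, 3.64 and 4.33 CPM in air (lowest, median, highest) and 13, 11.1, 13.8, 12.7 and 11.5 CPM at 180 mg/m3. It rose without overlap by 1.77 on the log2 scale (SE 0.17, adjusted p = 1.34e-11). Kif4a, a motor that binds chromosome arms and shortens the midzone, stood apart from these. At 180 mg/m3 the air rats had 15, 18.9 and 22.6 CPM and the exposed rats 18.7, 20.1, 26.7, 26 and 23.4 CPM. The groups overlapped, with a log2 value of 0.32 (95% interval 0.07 to 0.57) and an adjusted p of 0.0691. Its estimates were alike in every run, 0.28 at 90, 0.33 at 45, 0.28 at 22.5 and 0.29 at 11.25 mg/m3, and none was called. In its own test over the 5 doses the slope was 0.01 per doubling (95% interval -0.07 to 0.09). Leaving out air_180 replicate 5 or MWCNT_180 replicate 2 gave adjusted p of 0.0343 and 0.0385 for Kif4a at 180 mg/m3, leaving out air_090 replicate 6 gave 0.0302 at 90 mg/m3, and limma voom gave 0.0109 and 0.0121 at 180 and 45 mg/m3.

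The spindle assembly factors Tpx2 (an activator of Aurora A), Hmmr and Nusap1 were higher in the 4 upper runs. Nusap1, a microtubule-bundling protein, had 3.15, 3.75 and 4.14 CPM in air and 13, 12.1, 12.5, 12.2 and 11.4 CPM at 180 mg/m3. Its exposed rats lay close together and well above air, by 1.71 on the log2 scale (SE 0.17, adjusted p = 2.63e-11). Tpx2 had 3.82, 5.61 and 6.13 CPM in air and 16.8, 14.9, 14.8, 12.5 and 17 CPM after exposure, a log2 fold change of 1.53 (SE 0.15, adjusted p = 1.03e-11). The activator Tpx2 thus rose 2.9-fold in the run in which Aurka rose 1.32-fold.

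Among the cytokinesis genes, Ect2 encodes the exchange factor that activates RhoA at the cleavage furrow. The air rats of the 180 mg/m3 run had 2.6, 3.47 and 3.92 CPM (lowest, median, highest) and the exposed rats 15.1, 15.8, 12.5, 15.8 and 13.3 CPM. The rise of 2.09 (SE 0.15, adjusted p = 2.14e-15), or 4.26-fold, came without overlap, and Ect2 was higher in the 4 upper runs. Anln (anillin, which links the contractile ring) rose by 1.95 at 180 mg/m3, Racgap1 (a subunit of centralspindlin) by 1.53 and Prc1 (which bundles midzone microtubules) by 0.93, each called in the same 4 runs. Kif23, the motor subunit of centralspindlin, rose less. Its air rats had 13.7, 14.9 and 17.1 CPM and its exposed rats 20.9, 24.9, 26.7, 22.4 and 18.8 CPM, a log2 fold change of 0.60 (95% interval 0.41 to 0.80, adjusted p = 3.41e-06). At 45 mg/m3 Kif23 overlapped (18.7, 19.4 and 13.7 CPM in air, 18.5 CPM in the lowest exposed rat), with a log2 value of 0.28 and an adjusted p of 0.149. Racgap1 lost its call at 45 mg/m3 without any one of 6 of the 9 libraries of that run, and at 90 mg/m3 without MWCNT_090 replicate 2 (adjusted p = 0.0713).

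Condensin I folds mitotic chromosomes with the ATPase pair SMC2 and SMC4 and the regulatory subunits NCAPG and NCAPH. The fold changes of these parts were unequal, and so were their levels in air. Over the 27 air rats the means were 22.8 CPM for Smc2, 59.9 for Smc4, 1.47 for Ncapg and 3.04 for Ncaph. Ncapg had 0.938, 1.45 and 1.86 CPM in the air rats of the 180 mg/m3 run and 2.97, 5.82, 4.68, 5.59 and 5.91 CPM after exposure. It rose without overlap by 1.81 (95% interval 1.34 to 2.28, adjusted p = 5.36e-08), and Ncaph by 1.44. Smc4 had 57.9, 59.8 and 66.7 CPM in air and 80.3, 77.3, 78.3, 83.4 and 81.5 CPM after exposure. Its groups were also apart, but the log2 fold change was 0.38 (95% interval 0.22 to 0.55, adjusted p = 3.78e-04), or 1.31-fold. Smc2 had 20.8, 21.4 and 25.8 CPM in air and 27.1, 35.2, 32.4, 33.1 and 36.2 CPM, a log2 fold change of 0.53 (adjusted p = 6.48e-05).

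In the edgeR fit of the 53 libraries Smc2 and Smc4 were called at 180 and 90 mg/m3 only. At 90 mg/m3 Smc2 was at the threshold (log2 0.31, adjusted p = 0.0485), and of 18 other settings 11 lost the call and 1, all 60 libraries, turned the sign. In the air group of that run replicate 5 had 32.6 CPM of Smc4 and the others 54.3 to 61.9 CPM. Smc4 lost the call at 90 mg/m3 with that run fitted alone (log2 0.41, adjusted p = 0.134). At 45 mg/m3 the log2 values of Smc2 and Smc4 were 0.30 and 0.17 (adjusted p = 0.141 and 0.38), and at 22.5 mg/m3 0.28 and 0.12 (adjusted p = 0.0787 and 0.4). Smc2 was called at 45 mg/m3 with limma voom (0.0273) and with that run fitted alone (0.0365). The same held with the 4 labelled libraries of at most 5% liver counts put back (0.036). At 22.5 mg/m3 Smc2 was called with limma voom (0.00857) and without MWCNT_022 replicate 5 (0.0115). SMC2 and SMC4 also form condensin II, which works outside mitosis as well. Top2a, the topoisomerase that untangles sister chromatids, rose by 1.70 at 180 mg/m3 and Cdca2, a phosphatase-targeting subunit, by 1.40, and both were called in the 4 upper runs.

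Mki67, the Ki-67 protein that coats mitotic chromosomes and serves as the usual proliferation marker, had the lowest adjusted p of all members at 180 mg/m3. The air rats had 10.8, 14.8 and 17.7 CPM and the exposed rats 43.3, 40.7, 50.2, 47.1 and 47.9 CPM, a log2 fold change of 1.66 (SE 0.10, adjusted p = 1.30e-17). Its exposed means rose with dose, from 15.3 ± 0.984 CPM (n = 5) at 11.25 mg/m3 through 24.1 ± 2.63 (n = 6), 28.2 ± 2.32 (n = 6) and 33.7 ± 2.42 (n = 4) to 45.8 ± 3.79 CPM (n = 5), while the air means of the runs were between 11.2 and 14.5 CPM. The exposed rats were clear of their air rats in the 4 upper runs and overlapped at 11.25 mg/m3.

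**Figure D3:**
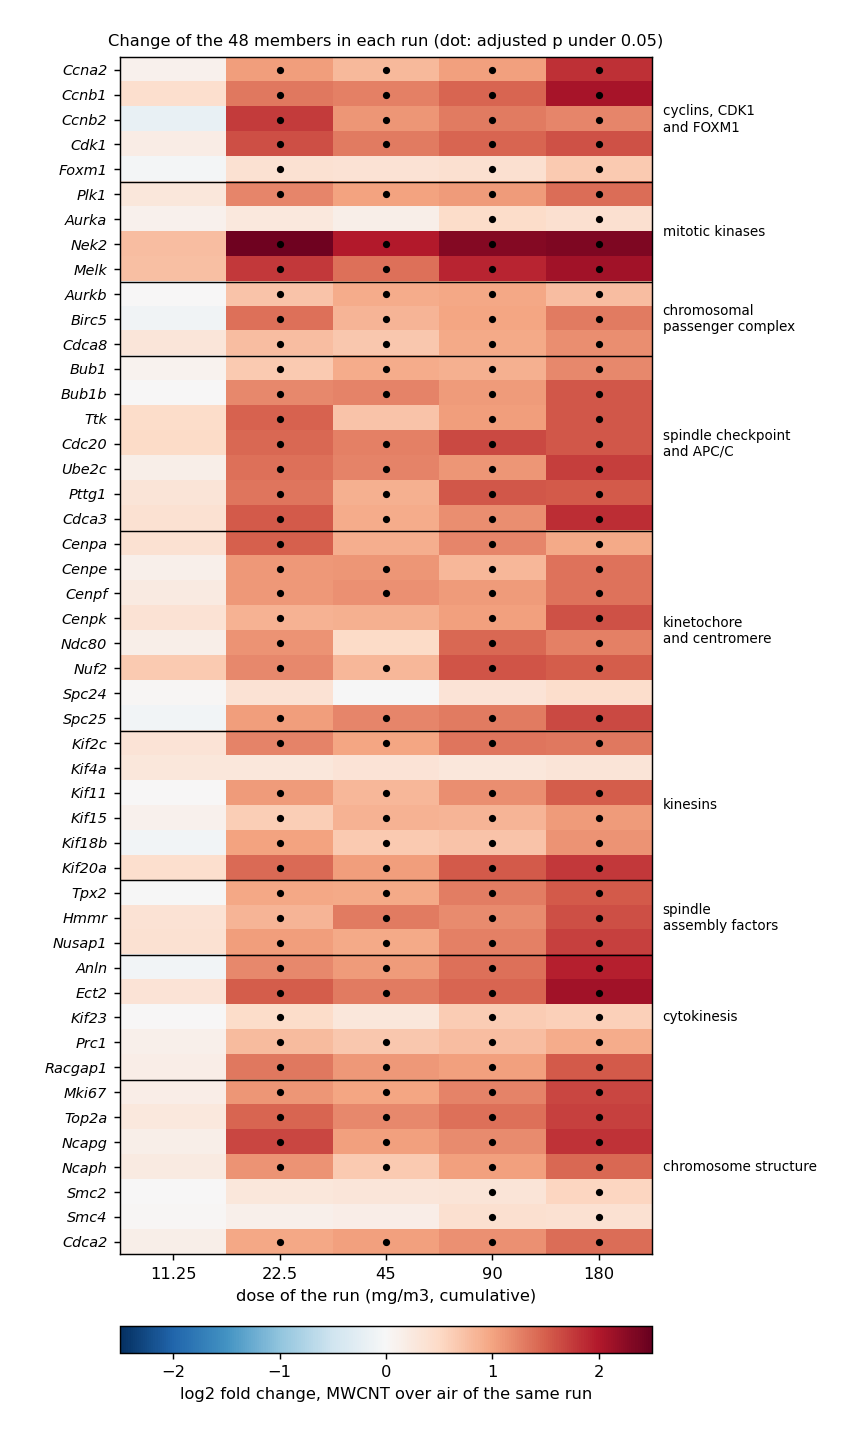
Log2 fold change of MWCNT over air of the same run (colour) for the 48 members (rows, grouped by role) in the 5 runs (columns, cumulative dose), with a dot where edgeR's adjusted p was under 0.05. The column at 11.25 mg/m3 has no dot, and the rows of Spc24 and Kif4a have none in any column.

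Over the 5 doses the effect grew, and most of the growth lay between 11.25 and 22.5 mg/m3. In the edgeR fit the slope of the effect per doubling of dose was above 0 for 40 of 48 members (5.58% of all genes), with a median of 0.25 on the log2 scale per doubling. The steepest were Anln (0.42, 95% interval 0.31 to 0.54), Spc25 (0.37) and Ect2 (0.34). The 8 without a called slope were Ccnb2, Aurka, Ttk, Cenpa, Cenpk, Spc24, Kif4a and Racgap1. The effect differed among the 5 runs for 36 members (4.92% of all genes). It was larger at 22.5 than at 11.25 mg/m3 for 25 members (0.7% of all genes), and the median difference of the 48 was 0.95. The largest of these differences were those of Ccnb2 (1.93, SE 0.42, adjusted p = 0.00933) and Nek2 (1.68, SE 0.30, adjusted p = 8.62e-04).

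Between neighbouring doses above that step no difference was called. For 45 against 22.5, 90 against 45 and 180 against 90 mg/m3 the edgeR test called 0 members and 0 genes, while an unadjusted p under 0.05 was found for 4, 6 and 9 members and for 721, 750 and 892 genes. DESeq2 called 0 members in each of them, and limma voom 0, 1 and 0. The median differences were -0.17, 0.18 and 0.27. The widest single one was that of Ndc80 between 90 and 45 mg/m3, at 0.95 (95% interval 0.52 to 1.38, adjusted p = 0.319), followed by Ccna2 between 180 and 90 mg/m3, at 0.81 (0.43 to 1.18, adjusted p = 0.388). A comparison of 180 with 22.5 mg/m3 was added after the data had been seen. In it Ccna2 (0.78, adjusted p = 0.017) and Mki67 (0.56, adjusted p = 0.0352) had a larger effect at 180, which is 2 of 48 members (0.888% of all genes). The same 2 genes were the ones with a slope above 0 over the 4 upper doses alone (1.26% of all genes). Estimates were largest at 180 mg/m3 for 33 members, at 90 for 9, at 22.5 for 5 (Ccnb2, Cdk1, Nek2, Birc5 and Cenpa) and at 45 for 1, Kif4a.

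The air groups of the 5 runs differed for 3 members, Kif18b (adjusted p = 0.0146), Top2a (0.0442) and Cdca3 (0.0478), where 7.11% of all genes differed. The mean of Top2a in air was 7.98 CPM in the 22.5 mg/m3 run and between 10.1 and 11.3 CPM in the other 4 runs, and the air rats of the 22.5 mg/m3 run also had the lowest mean over the 48 members.

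**Figure D4:**
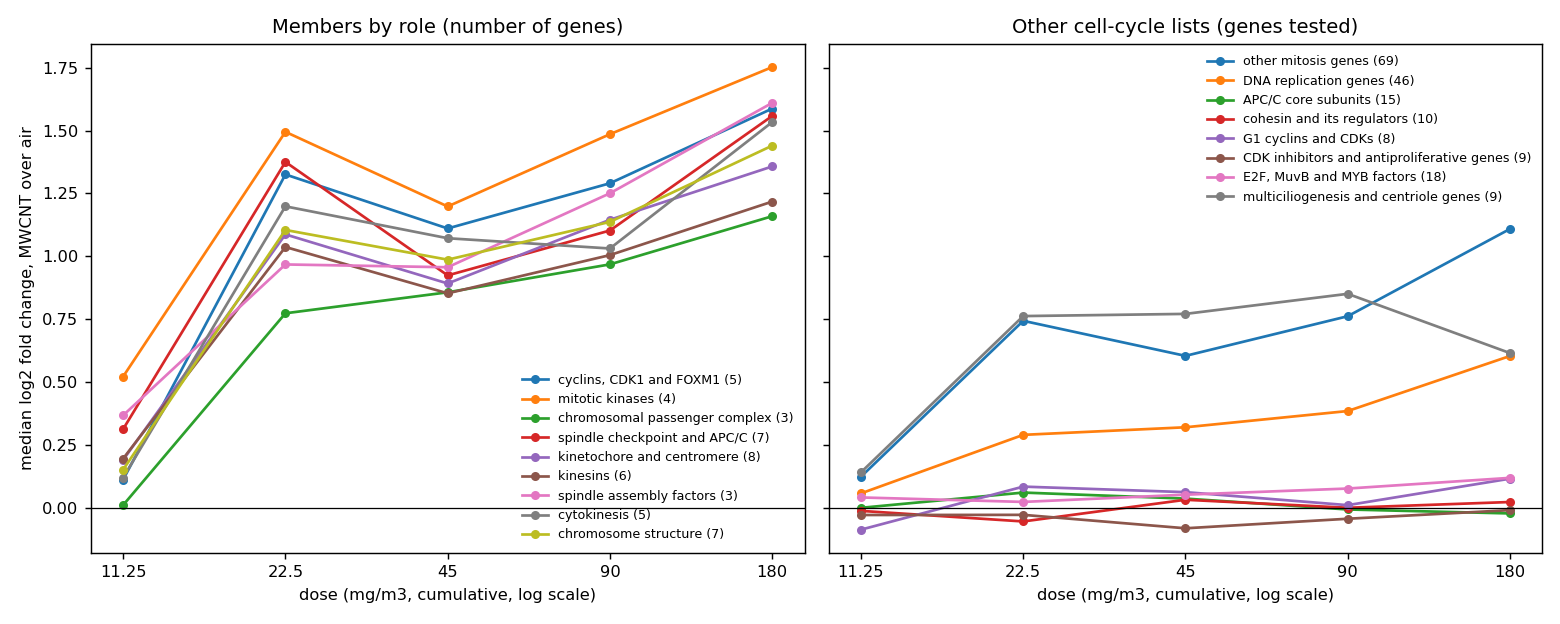
Median log2 fold change (y axis) against cumulative dose (x axis, log scale) for the 9 role groups of the members (left) and for 8 other cell-cycle lists (right). The role groups lie between 0.77 and 1.49 at 22.5 mg/m3 and between 1.16 and 1.75 at 180 mg/m3, and the lists of APC/C core subunits and cohesin stay near 0.

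Many listed mitosis genes outside the 48 also rose, fewest of them at 45 mg/m3 among the upper doses. Of 71 listed, 69 were tested, and 60 were higher and 1 lower at 180 mg/m3 (median 1.11), 51 and 1 at 90, 30 and 0 at 45, 47 and 0 at 22.5 and 0 and 0 at 11.25 mg/m3. The lowest adjusted p at 180 mg/m3 were those of Stil, a centriole duplication factor (log2 2.41), Spag5, a spindle protein (1.78), Plk4, the kinase that starts centriole duplication (1.68), and Ncapd2, a condensin subunit (0.84). The genes lower were Ncaph2 (-0.13, adjusted p = 0.00375) at 180 mg/m3 and Cdc25b (-0.23, adjusted p = 0.035) at 90 mg/m3, named after their values were seen. DNA replication genes, which act in the preceding S phase, also rose, with 33 of 46 higher at 180 mg/m3 (median 0.60), 24 at 90, 19 at 45, 25 at 22.5 and 0 at 11.25 mg/m3. Mcm5 (1.71) and Mcm6 (1.04), subunits of the replicative helicase, Tk1 (1.54), thymidine kinase, and Rrm2 (1.77), of ribonucleotide reductase, had the lowest adjusted p of this list at 180 mg/m3. Pcna, the sliding clamp, rose by 0.37.

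Subunits that are present through the whole cycle were not called with them. Of the 15 APC/C core subunits none was called in any run by edgeR (3, 2, 1, 1 and 0 with an unadjusted p under 0.05 from 180 down to 11.25 mg/m3), and their log2 values at 180 mg/m3 lay between -0.11 and 0.22. Of the 10 genes of cohesin, which holds sister chromatids together, and its regulators, none was higher in any run and 1, Mau2, was lower at 90 mg/m3 (-0.15, adjusted p = 0.0392). In that run 684 of the 15995 genes tested were lower. Among 8 cyclins and kinases of G1, Ccne1 (1.70) and Ccne2 (1.14), the cyclins of S phase entry, were higher at 180 mg/m3, while the D cyclins and their kinases were not called there. Of the 9 inhibitors and antiproliferative genes tested, Cdkn1b (p27) fell by 0.23 and Cdkn1c (p57) fell by 0.57 at 180 mg/m3, and Ccng1 rose by 0.13. Over all 15995 genes tested, 1739 genes were lower and 12% were higher in that run. Of 18 E2F, MuvB and MYB factors tested, 8 were higher at 180 mg/m3, with the lowest adjusted p in Mybl2 (B-MYB, 1.50), E2f7 (2.17), E2f8 (1.72) and E2f1 (0.45). The MuvB subunits Lin9, Lin37 and Lin52 were not called, and Lin54 was higher by 0.23.

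**Figure D5:**
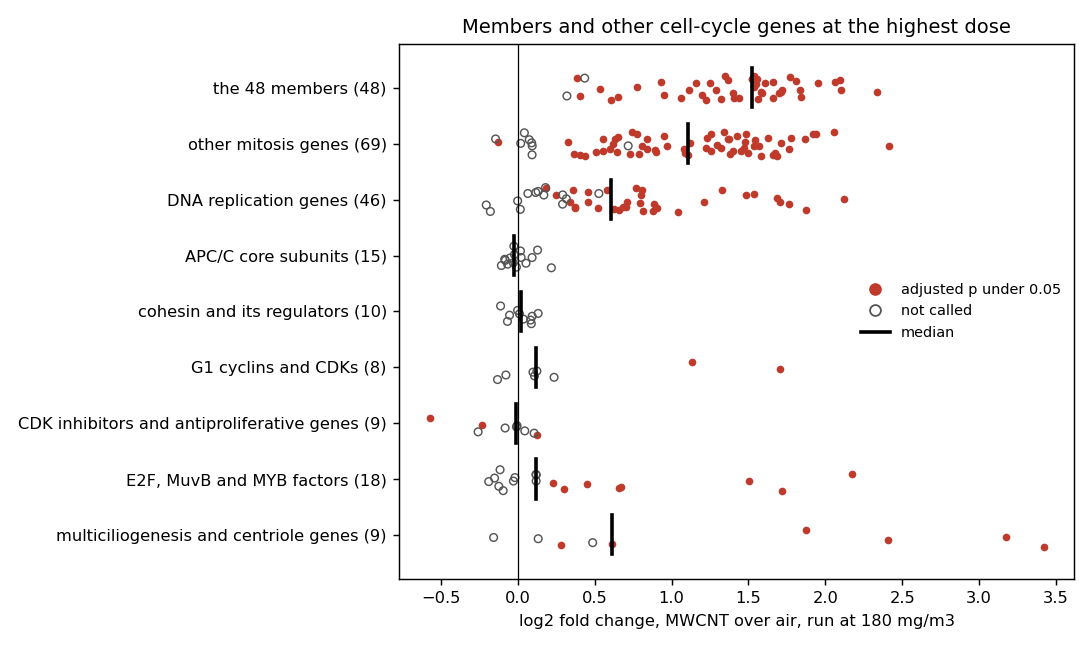
Log2 fold change of MWCNT over air in the 180 mg/m3 run (x axis) for the 48 members and 8 other cell-cycle lists (rows), filled red where edgeR's adjusted p was under 0.05, with the median as a black bar. The members have a median of 1.52, other mitosis genes 1.11 and DNA replication genes 0.60, and the APC/C core subunits are unfilled.

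Several genes of multiciliated cell formation were also higher after MWCNT. Their median log2 fold change was 0.62, 0.85, 0.77 and 0.76 from 180 down to 22.5 mg/m3. Of these 4 doses it was lowest at 180 mg/m3, where that of the members was largest (1.52). The slope over the 5 doses was called above 0 for 3 of the 9 genes tested, with a median of 0.19 per doubling. Whether the dose pattern differed from that of the members was not tested. Differentiating multiciliated cells are known to use some mitotic regulators without dividing. Of 9 genes of the programme tested, 6, 7, 5 and 5 were higher from 180 down to 22.5 mg/m3 and 2 at 11.25 mg/m3, where 0.025% of all genes were. Ccno, a cyclin-like gene of this programme, rose by 3.17 at 180, 3.67 at 22.5 and 1.52 at 11.25 mg/m3 (adjusted p = 3.63e-08), and Foxn4 by 3.42, 4.21 and 1.79 (adjusted p = 0.0206). Ccno and Foxn4 were thus called at the dose at which no mitosis gene was. Deup1 (listed as Ccdc67), a centriole amplification factor, rose by 1.87 at 180 mg/m3 and Mcidas, a regulator of the programme, by 2.40. Their part in the rise of the 48 members was not tested.

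Markers of several lung and immune cell types were also called at 180 mg/m3. Of all 15995 genes tested 12% were higher in that run and 1739 genes were lower, so 1 call in a short list is near that share. Of 8 neutrophil markers 6 were higher and 1 lower, and the summed level of the list was 161.6 to 250.5 CPM in air and 271 to 355 CPM after exposure. For monocytes and dendritic cells 5 of 8 tested were higher (202 to 225 CPM in air, 301 to 333 CPM after exposure), and for macrophages 5 of 10 were higher and 1 lower (771 to 1036 and 918 to 988 CPM). For type II alveolar cells 4 of 10 were higher, for type I cells 3 of 8 were lower and for endothelium 6 of 9 were lower. Of 6 markers of club cells, the secretory cells of the airways, 3 were lower and 1 higher (median -0.88), and their summed level was 5486 to 8348 CPM in air and 3603 to 4489 CPM after exposure, without overlap. Of 7 ciliated cell markers tested 3 were higher and 1 lower, while the summed level of the list was 664 to 953 CPM in air and 519 to 645 CPM after exposure. At 22.5 mg/m3 43 members and 5.18% of all genes tested were higher. There 2 of 8 neutrophil, 1 of 8 monocyte and dendritic, 4 of 10 macrophage and 0 of 10 type II markers were higher. The part of these cells in the result was not tested. Among bone marrow progenitor genes Mpo, Elane, Ctsg and Ms4a3 reached at most 0.2, 0.285, 0.151 and 0.0892 CPM in any analysed library. Of the 6 genes of that list found, 2 passed the filter and none was called by edgeR in any run. Their largest log2 values were 0.83 at 45 and 0.72 at 22.5 mg/m3, with 1 unadjusted p under 0.05 in each. The list summed to 1.24 to 2.6 CPM in air and 0.914 to 1.98 CPM after exposure at 180 mg/m3. Of 7 thymus genes only Cd1d1, also found on other cells, passed the filter. The germinal centre list summed to 103 to 130 CPM in air and 127 to 154 CPM after exposure at 180 mg/m3, where 2 of 5 genes, Gcsam (1.31) and Mybl1 (0.65), were higher. At 90 mg/m3 Gcsam (0.96), Mybl1 (0.64) and Bcl6 (0.58) were higher.

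Analysed libraries held 8099154 to 16176867 counts (median 11221335), so that 1 CPM stood for 8.09 to 16.4 reads, and the fitted biological coefficient of variation was 0.107. Of the 7 libraries with an outlier label, air_045 replicate 5 and MWCNT_090 replicates 5 and 6 carried 17.5% to 19.7% of their counts in 10 liver genes, and their mean over the 48 members lay between 0.471 and 0.857. The other 4 lay at 2.28 to 3.62. They carried 0.0171% to 0.353% of their counts in the liver genes, against at most 0.0366% in any analysed library. With these 4 put back, 46, 45, 39, 43 and 0 members were higher from the highest to the lowest dose. With all 60 libraries the counts were 41, 31, 35, 33 and 0, the slope was called for 5 members instead of 40, and the difference between 22.5 and 11.25 mg/m3 for 0 instead of 25. In RefSeq 20 of the 48 members overlap another gene, Foxm1, Plk1, Aurka and Kif4a among them. The kit kept strand, but no source used here says whether the counting did, and reads of such pairs may be shared.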

How the data were processed

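Lung RNA of 60 rats was measured by stranded mRNA sequencing, and the authors deposited whole-number counts per gene in one table. Per the submitters' processing notes the tools named were bcl2fastq 2.19, Trimmomatic 0.35, HISAT2 2.1.0, Cufflinks, SAMtools 1.8 and HTSeq 0.11.2, and the genome build is not given in the sources used here. The deposited counts of the 53 libraries without an outlier label were fitted in one 10-group model with edgeR 4.0.16 (R 4.3.3; TMM scaling, robust quasi-likelihood test, filterByExpr with a minimum count of 10), and p-values were adjusted by Benjamini-Hochberg over 15995 genes, which hold 99.9% of counts. The procedure was tested on simulated data. Alternatives used DESeq2 1.42.0, limma 3.58.1 (voom with library quality weights), other filters and scalings, and each library left out in turn. Depth was 8099154 to 16176867 counts per library. Full values are given for the highest and lowest fold change at 180 mg/m3 in each role group and for members called in some runs only, and up to 4 genes with the smallest p for each other list. Ccna2, Cdc20, Melk, Mki67 and Racgap1 are described beyond this rule and were chosen after their values were seen. The members and lists were chosen with earlier results of these data known. Every label names a separate animal. The p-values rest on the spread between rats within groups, pooled over the 10 groups of all runs. They do not measure how the effect of a dose would vary between runs.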

Additional observations from a re-analysis of the deposited data

Results flagged for a closer look

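The MWCNT effect differed among the 5 runs for 36 of the 48 members by edgeR's test of that difference, and it was larger at 22.5 than at 11.25 mg/m3 for 25 members.

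Single rats stood far from the rest of their group in 15 of 171 sets of values examined (18 members and the mean over all 48, in 9 groups of 4 to 6 rats), where chance gives about 1 in 20. In the air rats of the 11.25 mg/m3 run these were Aurka at 9.48 CPM in replicate 5, Birc5 at 0.900 CPM in replicate 2 and Kif4a at 22.9 CPM in replicate 6. In the exposed rats of that run Kif20a stood at 4.92 CPM in replicate 6. In the air rats of the 22.5 mg/m3 run they were Foxm1 at 9.6 CPM in replicate 1, Aurkb at 138 CPM in replicate 6, and Spc25 at 1.81 CPM and Ect2 at 4.26 CPM, both in replicate 4. In the exposed rats of the 45 mg/m3 run they were Birc5 at 2.85 CPM in replicate 4, and Cdca3 at 8.04 CPM and Spc24 at 4.42 CPM, both in replicate 6. In the air rats of the 90 mg/m3 run replicate 5 had a mean log2(CPM + 1) over the members of 2.24 and Smc4 at 32.6 CPM, and replicate 6 had Kif4a at 22.9 CPM. In the exposed rats of that run Birc5 stood at 5.63 CPM in replicate 4.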

How the results depend on the processing

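All 60 libraries include 3 with 17.5% to 19.7% of counts in liver genes. With all 60 the slope was called for 5 members and a difference among runs for 23. A larger effect was called at 22.5 than at 11.25 mg/m3 for 0, at 180 than at 90 for 1 and at 180 than at 22.5 for 0. A difference among air groups was called for 0, and the median at 90 mg/m3 was 0.86. There Smc2 and Smc4 turned to -0.037 and -0.0479 at 90 mg/m3. Over the 4 upper doses alone, an alternative chosen after seeing the data, the slope was called for 2 members and that of Birc5 turned to -0.0137. With limma voom the effect at 90 exceeded that at 45 mg/m3 for 1 member and that at 180 the one at 22.5 for 4, and air groups differed for 13. Without the filter on low counts air groups differed for 1, and with the 4 labelled libraries of at most 5% liver counts put back for 5.

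Leaving out each of the 53 libraries in turn, members higher ranged from 46 to 47, 44 to 47, 27 to 39, 41 to 44 and 0 to 0 from 180 down to 11.25 mg/m3, with 27 without air_045 replicate 4. Their medians ranged over 1.45 to 1.53, 1.10 to 1.19, 0.86 to 1.001, 1.09 to 1.19 and 0.13 to 0.22. A slope was called for 39 to 42 members, a difference among runs for 32 to 38 and a larger effect at 22.5 than at 11.25 mg/m3 for 17 to 28. For 45 against 22.5, 90 against 45, 180 against 90 and 180 against 22.5 mg/m3 the counts were 0, 0 to 1, 0 and 1 to 5, and for air groups 1 to 5. Of 10270 values of single members recomputed, 9912 kept call and direction, 272 lost the call, 83 gained it and 3 turned sign. No paired analysis was possible because animal numbers differ between groups. Depth limits members near 1 CPM, such as Cenpa and Cenpk, which rest on few reads.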
